A study of Mus musculus with 16 samples.

Results

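The genes described here are those of mitochondrial complex I whose symbols begin with Nduf. They were taken by symbol from the probe table, among probe sets that carry 1 gene symbol, and each gene was read from its brightest probe set over all 16 arrays. This gave 42 genes of 17097, measured by 75 probe sets, and 22 of them had more than 1 probe set. Of the 42 genes, 32 encode structural subunits of complex I and 7 encode assembly factors. The remaining 3 are Ndufa4 and Ndufa4l2, which carry the prefix without being structural complex I subunits, and Ndufs5-ps, which RefSeq annotates as a transcribed pseudogene. Ndufb6, Ndufa13, Ndufb1, Ndufs5 and Ndufaf7 were not analysed here.

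Complex I, the NADH:ubiquinone oxidoreductase, is the entry point of the respiratory chain. Its N module in the mitochondrial matrix oxidises NADH, its Q module passes the electrons through iron-sulfur clusters to ubiquinone, and its membrane arm pumps protons. The arm's central pumping subunits are encoded by mitochondrial DNA and the subunits with the Nduf prefix by the nucleus, and assembly factors bring the modules together without staying in the finished enzyme. Oxidative muscle fibres hold much of it. Mfn2, mitofusin 2, is a GTPase on the surface of mitochondria that drives their fusion.

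RNA came from the quadriceps muscle of 16 mice, with 1 Affymetrix array per mouse and 4 mice in each of 4 groups: Mfn2 KO at 22 months of age, control at 22 months, Mfn2 KO at 6 months and control at 6 months. The labels call the ages Old and Young, name the KO genotype only as Mfn2 KO, and give the animals of all groups the same standard chow. The Mfn2 allele, the cells in which it was deleted, the strain and the sex are not given in the sources used here. A family label runs through the samples: A and B occur at 22 months alone, C and D at 6 months alone, and Other at both ages. In replicates 1 to 4 it was A, A, A and Other in 22-month KO muscle and A, B, B and Other in 22-month control muscle. At 6 months it was C, D, D and Other in KO muscle and Other, C, D and Other in control muscle. Family thus partly follows age and genotype, and a fit with family compares few arrays of the same family.

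Every array carried the skeletal muscle markers: the summed level of 7 such genes lay between 14.96 and 15.16 in all arrays on the log2 scale. Mfn2 itself read 8.31, 8.01, 6.32 and 8.32 in 22-month KO muscle and 8.52, 8.67, 8.34 and 9.18 in 22-month control muscle. At 6 months it read 8.41, 8.49, 8.38 and 8.54 in KO muscle and 8.66, 9.05, 8.03 and 9.45 in control muscle. The KO and control groups did not overlap at 22 months and overlapped at 6 months, and Mfn2 passed the threshold at neither age (log2 difference -0.94 at 22 months and -0.34 at 6 months, SE 0.38, limma adjusted p = 1.0 for both). Whether its probe set lies in the deleted part of the gene is not given in the sources used here, so these values are no check of the deletion. Arrays with the same replicate number resembled each other across groups. The SD of values within an array averaged 2.00, 2.03, 1.82 and 1.91 for numbers 1, 2, 3 and 4. Numbers 1 and 2 were also set apart from 3 and 4 by Xist (3.53 to 4.12 against 5.47 to 6.26), by Uty on the Y chromosome (4.89 to 5.32 against 4.27 to 4.82) and by a measure of RNA quality, the pyruvate carboxylase control's signal at its 3 prime end less that at its 5 prime end (-0.35 to -0.08 against -0.01 to 0.23). Each comparison was therefore fitted in limma on groups alone and also with the replicate number as a block, called the replicate block here.

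No Nduf gene passed an adjusted p of 0.05 in any of 7 comparisons, with or without the replicate block. Those comparisons were KO against control at each age, 22 against 6 months in each genotype, the difference between these age effects, and the mean genotype and age effects. All values are log2 signals. Across all genes the median difference lay between -0.0091 and -0.0013 in these comparisons. Levels are compared between groups for the same probe set, and between genes only to say how bright a gene is.

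The plainest pattern was in KO muscle between the ages. In 22-month KO muscle 41 of 42 Nduf genes were lower than in 6-month KO muscle, with a median log2 difference of -0.09, beside a median of -0.01 and 9049 lower of 17097 genes. None of the 42 was called in limma, where 0.0175% of all genes were, and none with the replicate block, where 0.0234% were. At an unadjusted p under 0.05, 6 members were lower and 0 were higher, where 1.25% of all genes were lower at that level. With the replicate block 13 members were lower, where 5.88% of all genes were. The groups did not overlap for 3 members, all lower in 22-month KO muscle, where 0.871% of all genes were lower without overlap. All 42 members lay above the median level of all genes and 36 of them in the top 10%. Shares of all genes, here and below, are thus not those of genes of like level. The members also tended to move together within an array, so counts of members, here and below, are not counts of separate observations. For genotype at 22 months, number 1 alone had 38 of 42 members higher in KO muscle and number 3 had 41 lower. The median member deviation from each gene's mean over all arrays ran from -0.15 to 0.04 in 22-month KO muscle. In 6-month KO muscle it ran from -0.01 to 0.10, so these groups overlapped. The count of 6 became 1 without the trend on mean level, 2 in arrays scaled to the same SD, and 0 with family and the replicate block. Leaving out 1 array at a time, it was 3 without replicate 1 of 6-month KO, 2 without replicate 3 or 4 of 22-month KO, and 14 without replicate 2 of 22-month KO or replicate 4 of 6-month KO. In these bulk samples, fewer cells of a type and less RNA per cell cannot be told apart.

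Each module of the enzyme shared this direction. The N module had 9 of 10 genes lower (median -0.10), the Q module 5 of 5 (median -0.07), the proximal membrane arm 7 of 7 (median -0.09) and the distal membrane arm 9 of 9 (median -0.08). Ndufab1, the mitochondrial acyl carrier protein that sits in both arms, differed by -0.15 (SE 0.10) by its brightest probe set, whose name marks it as able to match several transcripts, and by -0.05, -0.01 and 0.08 by its 3 others. Ndufa7, an accessory subunit of the N module, was the member with a positive difference (0.05, SE 0.06), and its 4 other probe sets also had positive differences, between 0.04 and 0.12. Assembly factors were lower for 7 of 7 genes, with a median of -0.18 and a range from -0.44 to -0.01.

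The size of this shared difference depended on how the arrays were scaled. With each array scaled to the same SD, 36 of 42 genes were lower with age in KO muscle and the median was -0.06. Within the replicate numbers the medians were -0.07, -0.03, -0.18 and -0.09 for numbers 1, 2, 3 and 4, with 37, 28, 40 and 37 genes lower. The 3 prime minus 5 prime control signal averaged 0.03 ± 0.20 in 22-month KO muscle and -0.11 ± 0.21 in 6-month KO muscle (SD, n = 4 each), and it was higher at 22 months in 4 of 4 numbers. With that signal and the replicate block in the fit, chosen after seeing the data, the median was -0.06, 33 of 42 genes were lower and 3 had an unadjusted p under 0.05.

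**Figure D1:**
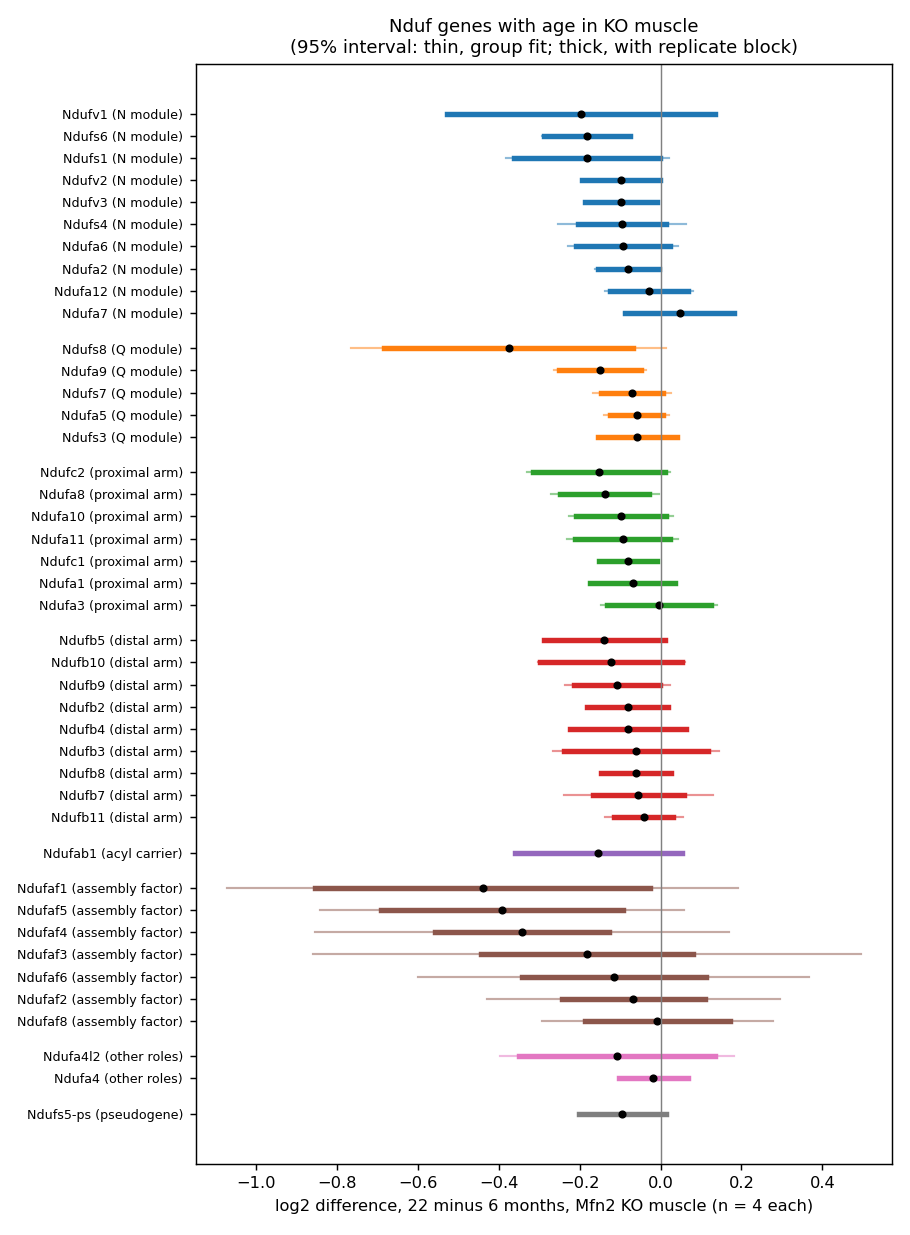
Log2 difference, 22 minus 6 months in Mfn2 KO muscle, for the 42 Nduf genes grouped by module (x axis, log2 scale, n = 4 arrays per group), with points for the estimate, thin lines for the 95% interval of the group fit and thick lines for that with the replicate block. Of the points 41 lie left of 0, and the intervals of the assembly factors are the ones that narrow most with the block.

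Ndufs6, a zinc-binding accessory subunit of the N module, had the smallest p of the members. It read 10.76, 10.80, 10.64 and 10.65 in 22-month KO muscle, against 10.96, 10.87, 10.92 and 10.84 in 6-month KO muscle. The 4 older mice all lay below the 4 younger ones, and the log2 difference was -0.18, a level 0.882 times that at 6 months (SE 0.05, 95% interval -0.29 to -0.07, limma adjusted p = 1.0 and 0.24 with the block). In control muscle it read 10.70, 10.92, 10.80 and 10.76 at 22 months and 10.84, 10.92, 10.81 and 10.87 at 6 months, which overlapped (-0.06, SE 0.05). Leaving out 1 array at a time kept the difference in KO muscle between -0.21 and -0.16.

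Ndufa9, an accessory subunit of the Q module, read 11.13, 11.13, 10.96 and 11.01 in 22-month KO muscle and 11.26, 11.27, 11.23 and 11.07 in 6-month KO muscle. The groups overlapped through the low replicate 4 of the younger KO mice, and the difference was -0.15 (SE 0.05, limma adjusted p = 1.0 and 0.30 with the block). In control muscle Ndufa9 read 11.01, 11.12, 11.10 and 11.05 at 22 months and 11.07, 11.17, 11.01 and 11.08 at 6 months, a difference of -0.01 (SE 0.05). Replicates 1, 2 and 3 of 6-month KO were the 3 highest of all 16 arrays.

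Of the catalytic core, 6 genes were measured, and 6 of 6 were lower at 22 months in KO muscle (median -0.14). Ndufv1, which binds NADH and the flavin, differed by -0.20 (SE 0.15), Ndufv2, which carries an iron-sulfur cluster beside it, by -0.10 (SE 0.04), and Ndufs1, the large iron-sulfur subunit of the N module, by -0.18 (SE 0.09). Without replicate 1 of 6-month KO the Ndufv1 difference was -0.11, without replicate 4 of that group it was -0.35, and with family and the replicate block it was 0.12. The Ndufs1 difference was -0.105 without replicate 3 of 22-month KO. Ndufv2 read 11.04, 11.03, 10.97 and 10.99 in 22-month KO muscle and 11.10, 11.10, 11.15 and 11.08 in 6-month KO muscle, without overlap. In the Q module Ndufs3 differed by -0.06 (SE 0.04) and Ndufs7, which holds the cluster that hands electrons to ubiquinone, by -0.07 (SE 0.05). Leaving out 1 array at a time gave -0.08 to -0.03 for Ndufs3 and -0.11 to -0.03 for Ndufs7.

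Ndufs8, the other iron-sulfur subunit of the Q module, had the largest negative difference of the subunits, -0.38 (SE 0.18, 95% interval -0.76 to 0.01). It read 9.05, 9.04, 8.24 and 8.64 in 22-month KO muscle and 9.31, 9.15, 9.08 and 8.93 in 6-month KO muscle. The low value of replicate 3 set much of this difference, which was -0.21 without that array. In control muscle Ndufs8 read 8.74, 9.29, 9.02 and 8.82 at 22 months and 9.05, 9.12, 8.56 and 9.13 at 6 months (0.00, SE 0.18), and replicate 3 was again the lowest of the younger mice. Its 4 probe sets all had negative differences in KO muscle, from -0.38 to -0.22, and in control muscle their differences with age ran from -0.05 to 0.10.

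The third subunit without overlap was Ndufc2, of the proximal membrane arm, which read 9.57, 9.60, 9.44 and 9.52 in 22-month KO muscle and 9.70, 9.65, 9.75 and 9.64 in 6-month KO muscle. Its difference was -0.15 (SE 0.08) there and -0.11 (SE 0.08) in control muscle, so that both genotypes had lower values at 22 months. The neighbouring proximal subunit Ndufa8 differed by -0.14 (SE 0.06) in KO muscle. At the other end of the list Ndufa3, also of the proximal arm, differed by less than 0.01 (SE 0.07) with age in KO muscle, and its sign turned with scaling.

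**Figure D2:**
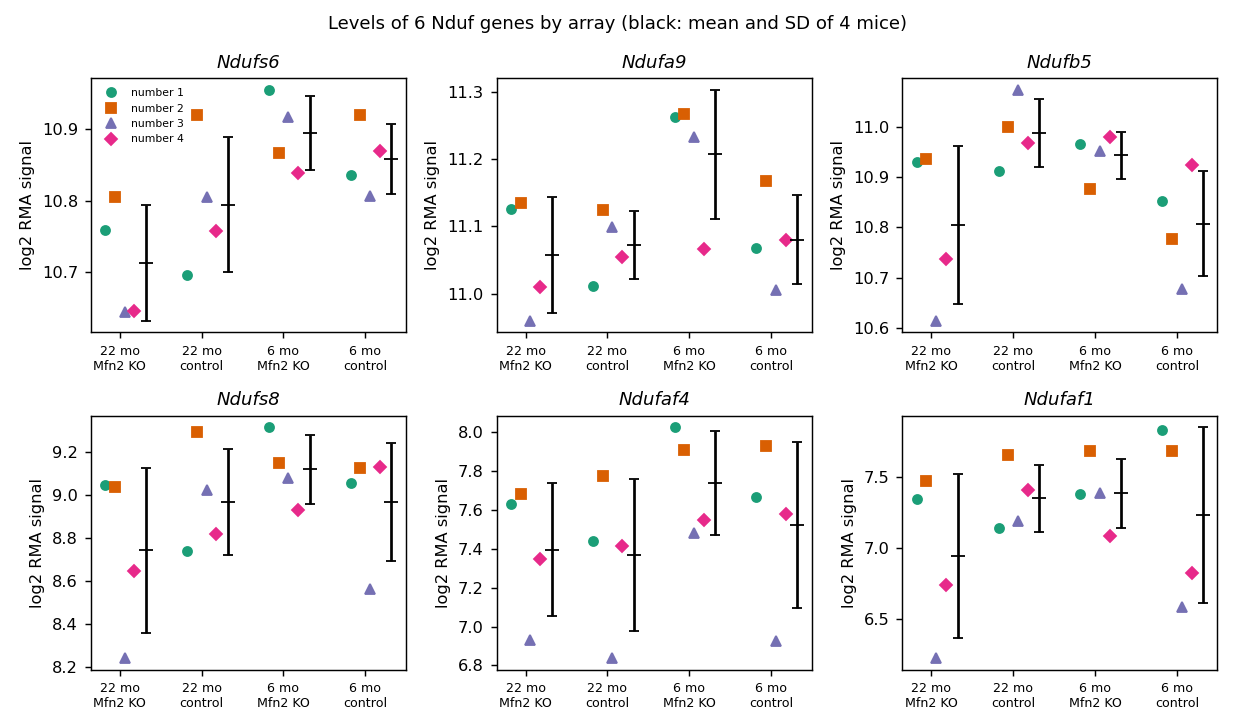
Log2 RMA signal (y axis) of Ndufs6, Ndufa9, Ndufb5, Ndufs8, Ndufaf4 and Ndufaf1 in each array by group, with marker shape and colour for the replicate number and black bars for the mean and SD of 4 mice. Ndufs6 in 22-month KO muscle lies wholly below 6-month KO muscle, and replicate 3 is the lowest array of 22-month KO muscle for all 6 genes.

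The assembly factors gave larger differences with much larger error. Ndufaf1, a factor of the membrane arm's intermediate assembly complex, read 7.34, 7.47, 6.22 and 6.74 in 22-month KO muscle and 7.38, 7.68, 7.39 and 7.08 in 6-month KO muscle (-0.44, SE 0.30, and SE 0.19 with the block). Ndufaf5, which hydroxylates an arginine of Ndufs7, read 7.53, 7.76, 6.67 and 7.42 in 22-month KO muscle and 7.81, 7.76, 7.67 and 7.70 in 6-month KO muscle (-0.39, SE 0.21, and 0.14 with the block). Ndufaf4, which with Ndufaf3 acts on the early Q module, read 7.63, 7.68, 6.93 and 7.35 in 22-month KO muscle and 8.03, 7.91, 7.48 and 7.55 in 6-month KO muscle. These 3 genes were lower at 22 months in 4 of 4 replicate numbers, and the groups overlapped for each. Without replicate 3 of 22-month KO the differences were -0.20 for Ndufaf1, -0.17 for Ndufaf5 and -0.19 for Ndufaf4.

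For Ndufaf4 the difference was -0.34 (SE 0.24, limma adjusted p = 1.0), and with the block its SE was 0.10 and its adjusted p 0.28. Its other probe set gave -0.45. Ndufaf3 differed by -0.18 (SE 0.32), Ndufaf6 by -0.12 (SE 0.23), Ndufaf2, a late factor of the N module, by -0.07 (SE 0.17), and Ndufaf8, a partner of Ndufaf5, by -0.01 (SE 0.13). These 4 differences took both signs when 1 array at a time was left out. In control muscle the same genes differed with age by values between -0.16 (Ndufaf4) and 0.12 (Ndufaf1), with 4 of 7 lower.

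Promoter windows are shown for Ndufs6 and Ndufa9 and for Ndufaf4 and Ndufaf5, the subunits and assembly factors with the smallest p for age in KO muscle in the fit with the block. Each runs from 250 bases before to 50 after a start site in RefSeq on GRCm38.p6, 5 prime to 3 prime on the gene's strand, and capitals mark a match, on either strand, to the core letters bound by NRF1 (GCGCANGC) or YY1 (AAGATGG), factors known for nuclear genes of mitochondrial proteins. Matches to NRF1 letters can overlap, since the letters are nearly the same on both strands.
Ndufs6, chr13:73328433-73328732, minus strand: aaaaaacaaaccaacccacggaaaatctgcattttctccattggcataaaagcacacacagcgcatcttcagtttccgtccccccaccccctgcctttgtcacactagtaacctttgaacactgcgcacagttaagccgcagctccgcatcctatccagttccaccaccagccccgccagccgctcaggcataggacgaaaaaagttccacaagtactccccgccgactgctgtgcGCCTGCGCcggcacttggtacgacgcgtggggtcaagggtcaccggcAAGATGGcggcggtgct
Ndufa9, chr6:126849095-126849394, minus strand: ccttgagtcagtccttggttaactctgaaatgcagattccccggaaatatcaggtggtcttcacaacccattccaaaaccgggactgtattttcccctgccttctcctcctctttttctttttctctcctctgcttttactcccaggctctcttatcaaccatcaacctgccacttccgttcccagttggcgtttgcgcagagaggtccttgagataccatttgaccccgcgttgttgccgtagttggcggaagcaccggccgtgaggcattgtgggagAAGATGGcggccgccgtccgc
Ndufaf4, chr4:24897833-24898132, plus strand: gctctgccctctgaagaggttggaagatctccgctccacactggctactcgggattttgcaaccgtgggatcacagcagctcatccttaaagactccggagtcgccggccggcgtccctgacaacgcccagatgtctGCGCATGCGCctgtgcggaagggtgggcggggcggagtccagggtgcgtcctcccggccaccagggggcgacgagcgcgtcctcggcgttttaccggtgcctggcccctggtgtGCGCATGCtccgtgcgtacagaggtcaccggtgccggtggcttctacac
Ndufaf5, chr2:140170396-140170695, plus strand: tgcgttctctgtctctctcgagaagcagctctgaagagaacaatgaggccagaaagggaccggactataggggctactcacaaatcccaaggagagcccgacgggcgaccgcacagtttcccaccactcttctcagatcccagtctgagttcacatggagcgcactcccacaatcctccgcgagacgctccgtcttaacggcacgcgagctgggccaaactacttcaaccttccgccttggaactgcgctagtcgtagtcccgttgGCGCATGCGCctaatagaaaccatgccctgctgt
Windows were found for 36 of the 42 genes. NRF1 letters were in 28.9% of the 38 windows of members, against 9.95% of all 32851 windows, and YY1 letters in 21.1% against 6.34%. The letters CCGGAAG of GABPA were in 13.2% of member windows and 8.86% of all, and AAGGTCA of the estrogen-related receptors in 5.26% and 4.72%. Of the 4 windows shown, Ndufs6 held a match to each of NRF1 and YY1, Ndufa9 a YY1 match, and Ndufaf4 and Ndufaf5 NRF1 matches. These are letters in a window, and binding was not measured.

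In control muscle the members showed no common shift with age in the deposited values, but most were lower in scaled arrays, as in KO muscle. At 22 months 26 of 42 were lower than at 6 months, the median was -0.01, and 0 were called, beside 0.0% of all genes, and 0 with the block, beside 0.0468%. Without replicate 1 of 22-month control 15 of 42 were lower. Scaling the arrays to the same SD gave 35 of 42 lower and a median of -0.05. Within the replicate numbers the medians went both ways (-0.12, 0.02, 0.06 and -0.05). The largest positive difference was that of Ndufb5, an accessory subunit of the distal membrane arm, at 0.18 (SE 0.07, limma adjusted p = 1.0).

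The difference between the age effects asks whether the age difference in KO muscle was other than that in control muscle. It was negative for 38 of 42 genes, with a median of -0.08, and again 0 members were called, beside 0.0% of all genes. This count depended on the scale of the arrays: with arrays of the same SD it was negative for 19 of 42 genes and the median was 0.01. With family and the replicate block in the fit it was negative for 22 of 42. The assembly factors kept a negative median in the scaled arrays (-0.16, 5 of 7 negative), close to that in the deposited values (-0.19, 5 of 7).

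Ndufb5 had the smallest p of the members for that difference. It read 10.93, 10.94, 10.61 and 10.74 in 22-month KO muscle, against 10.91, 11.00, 11.07 and 10.97 in 22-month control muscle. At 6 months it read 10.97, 10.88, 10.95 and 10.98 in KO muscle, against 10.85, 10.78, 10.68 and 10.92 in control muscle. KO arrays were thus mostly below control arrays at 22 months (-0.18, SE 0.07) and above them at 6 months (0.14, SE 0.07), with overlap at both ages. The difference between the age effects was -0.32 (SE 0.10, limma adjusted p = 1.0 and 0.64 with the block), and its second probe set had the same signs in the 4 comparisons of groups.

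At 6 months, KO muscle had higher values than control muscle for 32 of 42 genes, with a median of 0.04, and 0 were called, beside 0.0% of all genes. The number of lower genes was 10, and it was 4 without replicate 2 of 6-month control and 5 without replicate 4 of 6-month KO. At an unadjusted p under 0.05 there was 1 member, Ndufa9 (0.13, SE 0.05), where 1.0% of all genes were higher at that level, and with the block 3 members, where 5.19% were. For 2 members the groups did not overlap, where 0.661% of all genes were higher without overlap. Ndufa1, an X-linked subunit of the proximal arm needed for assembly, read 11.33, 11.31, 11.32 and 11.29 in KO muscle against 11.18, 11.20, 11.21 and 11.26 in control muscle (0.10, SE 0.05, limma adjusted p = 1.0). Ndufc1, of the same arm, read 11.92, 11.91, 11.90 and 11.90 in KO muscle against 11.89, 11.86, 11.86 and 11.84 in control muscle (0.05, SE 0.03), and its second probe set gave -0.03.

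The direction at 6 months also turned with scaling, with 16 of 42 genes higher and a median of -0.03 in arrays of the same SD. Within replicate numbers 1 to 4 the medians were 0.08, 0.00, 0.11 and -0.03. The largest positive differences were those of Ndufaf4 (0.22, SE 0.24), Ndufv1 (0.16, SE 0.15) and Ndufaf5 (0.16, SE 0.21). The largest negative were those of Ndufa7 (-0.06, SE 0.06), Ndufs5-ps (-0.05, SE 0.05) and Ndufaf2 (-0.04, SE 0.17).

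At 22 months, KO muscle had lower values than control muscle for 33 of 42 genes, with a median of -0.04, and 0 were called, beside 0.0% of all genes. Without replicate 3 of 22-month KO 21 of 42 were lower. With family and the replicate block in the fit 10 of 42 were, and that fit rests on few arrays, since family partly follows genotype. In the N module 10 of 10 genes were lower (median -0.05) and in the Q module 5 of 5 (median -0.03). The 3 largest negative differences were those of Ndufaf1 (-0.40, SE 0.30), Ndufaf5 (-0.23, SE 0.21) and Ndufs8 (-0.22, SE 0.18), and all 3 were lower in 3 of 4 numbers. Without replicate 3 of 22-month KO these differences were -0.165 for Ndufaf1, -0.0012 for Ndufaf5 and -0.06 for Ndufs8. The largest positive were those of Ndufaf8 (0.09, SE 0.13), Ndufaf2 (0.04, SE 0.17) and Ndufa3 (0.03, SE 0.07). The replicate numbers did not go the same way: number 1 had 38 of 42 genes higher in KO muscle (median 0.12), while numbers 2, 3 and 4 had 30, 41 and 32 lower (medians -0.04, -0.16 and -0.06).

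Over both ages, 22 of 42 genes were lower in KO than in control muscle, with a median of -0.0017, and 0 were called, beside 0.0% of all genes. Without replicate 3 of 22-month KO 13 were lower, and with family and the replicate block 7. In arrays of the same SD 33 of 42 were lower (median -0.03). Ndufaf1 (-0.13, SE 0.21), Ndufaf6 (-0.10, SE 0.16) and Ndufaf3 (-0.07, SE 0.23) had the largest negative differences and Ndufaf4 (0.12, SE 0.17), Ndufaf8 (0.09, SE 0.09) and Ndufa1 (0.06, SE 0.04) the largest positive. Over both genotypes, 39 of 42 were lower at 22 than at 6 months (median -0.05, and -0.05 with 39 lower in arrays of the same SD). None was called, where 0.0585% of all genes were, and none with the block, where 0.579% were. At an unadjusted p under 0.05 there were 5 members, all lower, where 1.66% of all genes were lower, and with the block 9, where 6.42% were. Leaving out 1 array at a time gave 2 to 10 members. Ndufs6 (-0.12, SE 0.04) had the smallest p in limma on groups alone (adjusted p = 0.69), and Ndufaf4 (-0.25, SE 0.17) with the block (adjusted p = 0.15). Ndufaf5 (-0.20) and Ndufs8 (-0.19) were the next most negative, and Ndufb5 (0.02), Ndufa7 (0.02) and Ndufa3 (0.01) the positive ones.

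**Figure D3:**
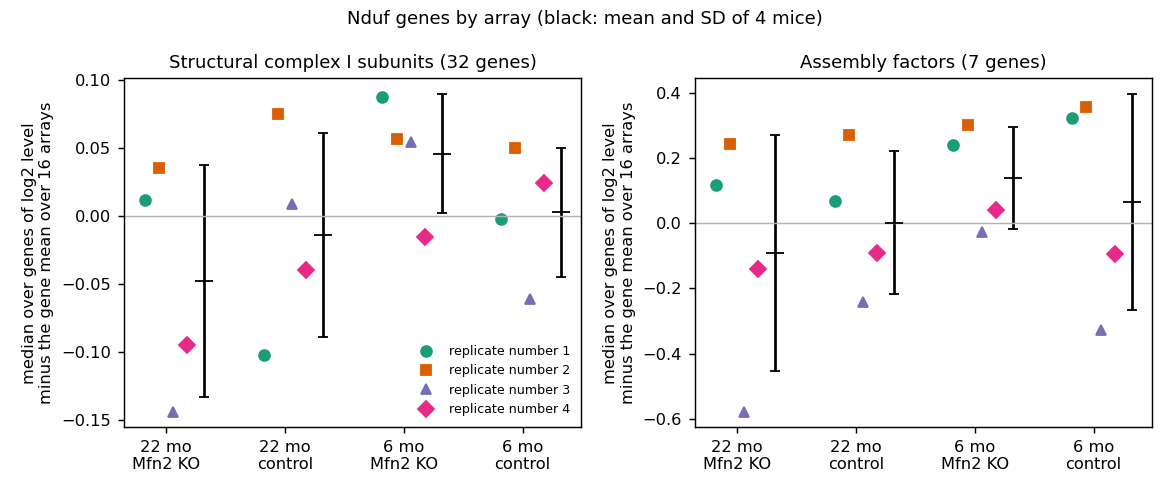
Median over the 32 structural subunits (left) and the 7 assembly factors (right) of the log2 level minus each gene's mean over 16 arrays (y axis), by group, with marker shape and colour for the replicate number and black bars for the mean and SD of 4 mice. The groups overlap in both panels, and in the right panel numbers 1 and 2 lie above numbers 3 and 4 in every group.

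The members differed in how far the replicate number moved them. Measured against each gene's mean over all arrays, the 32 structural subunits had a median deviation of -0.05 ± 0.09 in 22-month KO muscle, -0.01 ± 0.08 in 22-month control muscle, 0.05 ± 0.04 in 6-month KO muscle and 0.00 ± 0.05 in 6-month control muscle (SD, n = 4 each). For the 7 assembly factors the same values were -0.09 ± 0.36, 0.00 ± 0.22, 0.14 ± 0.16 and 0.06 ± 0.33. By number, the assembly factors averaged 0.19, 0.29, -0.29 and -0.07 for 1, 2, 3 and 4, and the structural subunits 0.00, 0.05, -0.04 and -0.03. Ndufaf3 read 5.93 and 6.05 in numbers 1 and 2 against 4.84 and 5.21 in numbers 3 and 4 of 22-month KO muscle, and 5.76 and 6.00 against 5.31 and 5.45 in 6-month control muscle. It was the dimmest member (mean level 5.64), and the array median was 5.10 in numbers 3 and 4 of 22-month KO muscle. Xist, Uty and the control signal for RNA quality, given above, split the arrays the same way, and which of them goes with these levels was not tested.

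The block narrowed the error of 7 of 7 assembly factors and that of the subunits less evenly. For the 7 assembly factors the median SE of a difference between groups was 0.11 with the block and 0.23 on groups alone, and the ratio of these SEs ran from 0.385 to 0.66 with a median of 0.483. For the 32 structural subunits the median SE was 0.05 with the block and 0.06 on groups alone, and the ratio ran from 0.608 (Ndufb7, of the distal membrane arm) to 1.13 with a median of 0.907. For the age difference in KO muscle the 95% interval lay wholly within 0.5 of 0 on the log2 scale for 30 of 32 structural subunits and for 2 of 7 assembly factors, and with the block for 30 of 32 and 4 of 7. For the genotype difference at 6 months this held for 31 of 32 subunits and 2 of 7 factors, and at 22 months for 31 of 32 and 2 of 7. These intervals are those of single genes and are not adjusted for their number.

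Of the genes that carry the prefix by name, Ndufa4, now assigned to cytochrome c oxidase, was the steadiest. It read 11.41, 11.39, 11.38 and 11.45 in 22-month KO muscle, 11.31, 11.34, 11.45 and 11.42 in 22-month control muscle, 11.45, 11.45, 11.41 and 11.40 in 6-month KO muscle and 11.44, 11.48, 11.40 and 11.39 in 6-month control muscle. Its differences lay between -0.05 (SE 0.03, age in control muscle) and 0.03 (SE 0.03, genotype at 22 months). Its paralog Ndufa4l2, known as a hypoxia-induced gene, read low (mean level 5.69) and had differences between -0.11 and 0.01 (SE 0.14). Ndufs5-ps was read from a brightest probe set whose name marks it as able to match several transcripts. Its log2 difference with age was -0.09 (SE 0.05) in each genotype, and its reading may be shared with other transcripts. Its other probe set gave 0.01 in KO muscle and -0.12 in control muscle.

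Probe sets of a gene did not always go the same way. Among the 22 genes with more than 1 probe set, a further probe set had the other sign for 6 genes in the genotype comparison at 6 months, 9 at 22 months, 9 in the age comparison of control muscle and 6 in that of KO muscle. Of genes described above, Ndufaf8 gave 0.09 for genotype at 22 months by its brightest probe set and -0.10 by the other, and Ndufa7 gave -0.01 by its brightest and 0.03 to 0.15 by the others. For the same comparison Ndufaf4 gave 0.03 by its brightest probe set and -0.04 by the other, and Ndufab1 gave -0.04 by its brightest and -0.03, -0.02 and 0.17 by the others.

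**Figure D4:**
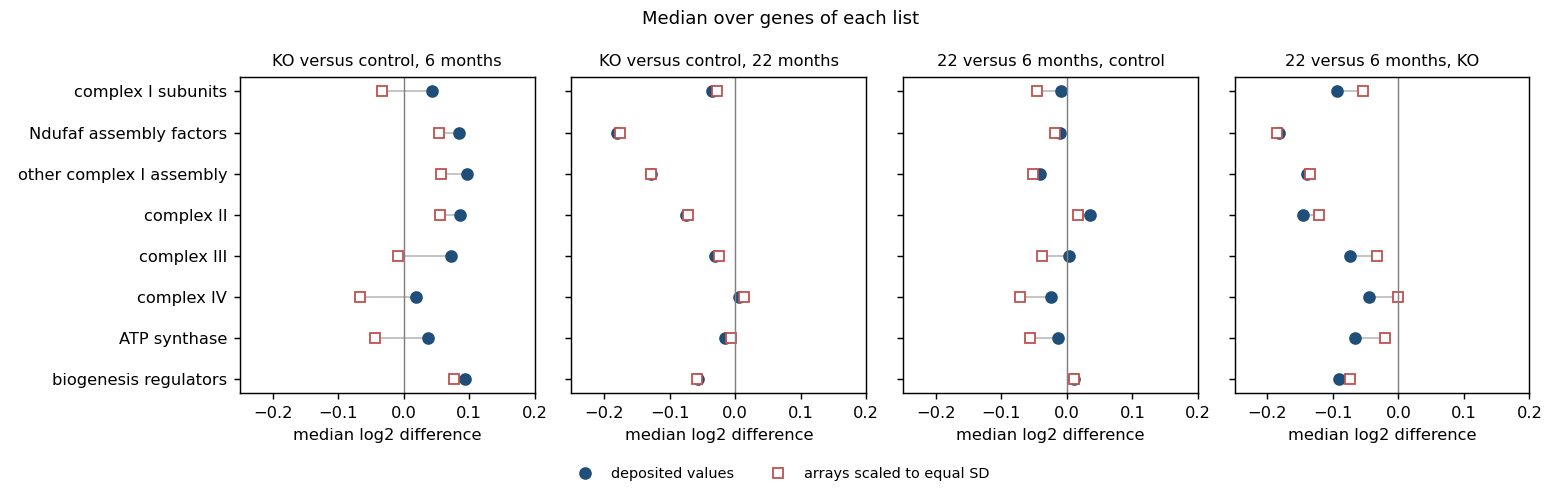
Median log2 difference over the genes of 8 lists (rows) in the 4 comparisons of groups (panels), from the deposited values (filled circles) and from arrays scaled to the same SD (open squares). In 22 against 6 months in KO muscle, 8 of 8 medians are below 0 in the deposited values, and scaling moves the lists of complexes I, III and IV and ATP synthase more than the assembly and regulator lists.

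Other respiratory chain genes lay to the same side in KO muscle with age, and none of them was called. Beside the 32 complex I subunits (31 lower, median -0.09), complex II and its assembly genes had 8 of 8 lower (median -0.15), complex III 8 of 8 (-0.07), complex IV 9 of 12 (-0.05) and ATP synthase 13 of 14 (-0.07). Complex I assembly genes without the prefix had 10 of 11 lower (-0.14). Arrays of the same SD gave 6 of 12 lower for complex IV and 9 of 14 for ATP synthase. The difference between complex I and these lists was not tested.

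Among 11 regulators of mitochondrial biogenesis, none was called on groups alone. With the replicate block 1 was called, for age over both genotypes, where 0.579% of all genes were. This gene, Ppargc1b, a coactivator of nuclear genes for mitochondrial proteins, read 6.80, 7.02, 5.71 and 6.01 in 22-month KO muscle, 6.03, 7.03, 6.13 and 6.53 in 22-month control muscle, 7.53, 7.65, 6.77 and 7.03 in 6-month KO muscle and 7.08, 7.26, 5.96 and 6.97 in 6-month control muscle. Over both genotypes it fell by 0.62 on the log2 scale at 22 months (SE 0.13, limma adjusted p = 0.0456 with the block), and on groups alone the adjusted p was 1.0 (SE 0.24). Ppargc1a was not analysed here.

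Lists of markers of other cells also differed in these contrasts, and most of their genes were not called. For age in KO muscle 4 of 4 adipocyte markers were higher (median log2 difference 0.75) and 3 of 5 fibroblast markers lower (median -0.56). Of the adipocyte markers, Fabp4 differed little in each of the 4 comparisons of groups, between -0.08 and 0.04 (SE 0.07). Of the fibroblast markers, Col3a1 fell by 0.92 on the log2 scale (SE 0.14, limma adjusted p = 0.0313). The summed adipocyte level ranged from 11.07 to 11.54 in 22-month KO muscle and from 11.08 to 11.23 in 6-month KO muscle, and the fibroblast level from 11.42 to 11.77 in 22-month KO muscle and from 11.84 to 12.41 in 6-month KO muscle. Of the other lists, 7 of 7 macrophage (median 0.35), 2 of 2 erythroid (0.57) and 5 of 7 slow fibre markers (0.12) were higher and 4 of 4 endothelial markers lower (-0.25). Over both genotypes Col1a1 fell by 1.04 on the log2 scale (SE 0.17, limma adjusted p = 0.029) and Col3a1 by 0.81 (SE 0.10, limma adjusted p = 0.00275). There the macrophage marker Mpeg1 rose by 0.45 with the block (SE 0.09, limma adjusted p = 0.0463), and it was not called on groups alone. In control muscle 4 of 4 adipocyte markers were lower (median -0.40) and 7 of 7 macrophage (0.40) and 7 of 7 slow fibre markers (0.57) higher at 22 months. For genotype at 22 months 4 of 4 adipocyte (median 0.30) and 7 of 7 slow fibre markers (0.73) were higher in KO muscle. For genotype at 6 months 4 of 4 adipocyte markers were lower in KO muscle (median -0.85), and 4 of 4 endothelial (0.29) and 7 of 7 macrophage markers (0.18) were higher. The 7 slow fibre markers were higher there (median 1.51, median SE 1.24), and their summed level ranged from 11.20 to 13.62 in KO muscle and from 8.58 to 12.75 in control muscle, so that quadriceps pieces differed widely in slow fibre RNA within each group. Among these defining markers, Lep averaged 3.85 in 22-month KO muscle and 3.36 in 6-month KO muscle, and Pdgfra averaged 3.77 in 22-month and 3.69 in 6-month KO muscle. Both genes lay below the array medians of these groups, of which the lowest was 5.10. The part of these cells in the Nduf levels was not tested.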

How the data were processed

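Quadriceps RNA of 16 mice was measured on Affymetrix arrays, with 25 ng of total RNA amplified per the labels. The deposited log2 values were made by the authors with RMA and affy, per the submitters' processing notes, which give no version. RMA sets all arrays to a shared distribution over all probes before probes are summarised, so differences of a whole array's scale can remain per probe set. The number of arrays limits the precision.

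Of 45141 probe sets, 104 controls were left out, 28898 carried 1 symbol, 551 several and 15588 none. Each of 17097 genes was read from its brightest probe set, with no filter on level. All 42 members' gene IDs were in the RefSeq table of GRCm38.p6, which also gave the promoter windows.

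The model, run in R 4.3.3 with limma 3.58.1, had 1 mean per group over all 16 arrays and a trend on mean level, with two-sided p-values adjusted by Benjamini-Hochberg over all genes and a threshold of 0.05. The procedure was tested on simulated data. Same-numbered arrays of different groups deviated together (r from 0.289 to 0.780 over 24 pairs, median 0.677, against -0.455 for other numbers), which pairs them by the data. What the number stands for is not given in the sources used here. P-values on groups alone rest on the spread between the mice of a group, which includes that between replicate numbers. With the block they rest on the spread left after the number is taken out. Alternatives were the replicate block, family with the block, the mean of probe sets, genes above the median level, no trend, arrays scaled to the same SD, each array left out, and, added after seeing the data, the control's 3 prime minus 5 prime signal with the block and scaled arrays with the block.

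Named were the core subunits, the assembly factors, Ndufa4 and Ndufa4l2, and the 3 largest positive and negative differences of each comparison. Ndufs6, Ndufa9, Ndufa8, Ndufab1 and Ndufc1 were named after their values were seen. The members and lists were chosen with earlier results of these data known.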

Additional observations from a re-analysis of the deposited data

Results flagged for a closer look

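An array stood far from the other 3 of its group for 5 of 168 combinations of gene and group. That share is below the about 1 in 20 that chance alone marks. The measure was the gap to the nearest array over the group's whole range, set against Dixon's critical value for 4 arrays. Ndufa4l2 was high in replicate 3 of 22-month control (5.9887, the others 5.62 to 5.65). Ndufa9 was low in replicate 4 of 6-month KO (11.0659, the others 11.23 to 11.27). Ndufb8, of the distal membrane arm, was low in replicate 1 of 22-month control (11.1873, the others 11.28 to 11.29). Ndufs8 was low in replicate 3 of 6-month control (8.5597, the others 9.05 to 9.13). Ndufv3, an accessory subunit of the N module, was high in replicate 1 of 6-month KO (11.4824, the others 11.40 to 11.41).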

How the results depend on the processing

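The count of members called stayed at 0 in the 7 comparisons under every alternative and with each array left out, also with the replicate block, where the smallest adjusted p of a member with an array left out was 0.121 (limma). The paired fit with the replicate block changed no call. It moved the members at an unadjusted p under 0.05 to 13 for age in KO muscle, 9 for age over both genotypes and 3 for genotype at 6 months, against 6, 5 and 1 on groups alone. In arrays scaled to the same SD the genotype median at 6 months was -0.0289 with 26 members lower, and the difference of age effects had a median of 0.00976 with 19 lower. With family and the replicate block 10 members were lower for genotype at 22 months and 7 over both ages, and the difference of age effects had a median of -0.00185 with 22 lower. With the control's 3 prime minus 5 prime signal and the replicate block 5 were lower for genotype at 6 months. The cause was not tested for any of these. Families A to D each occur at 1 age alone, and family B occurs in control muscle alone.

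Leaving out 1 array at a time gave 4 to 15 members lower for genotype at 6 months, 21 to 39 at 22 months and 13 to 28 over both ages, and 15 to 37 for age in control muscle. For age in KO muscle it gave 36 to 41 lower and medians from -0.125 to -0.0609.

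Signs of single genes turned under family and the replicate block for Ndufa3 (0.0954), Ndufa7 (-0.0136), Ndufaf2 (0.00682) and Ndufv1 (0.117) with age in KO muscle, for Ndufa7 (-0.0904), Ndufaf5 (0.0296) and Ndufb5 (-0.099) with age over both genotypes, and for Ndufaf2 (0.0233) and Ndufaf3 (-0.125) with age in control muscle. They also turned there for genotype in Ndufs8 at 22 months (0.0682), Ndufaf2 at 6 months (0.0496) and Ndufaf6 over both ages (0.0225), and for the difference of age effects in Ndufaf2 (-0.0165). Scaled arrays turned Ndufa3 (0.0389) and Ndufaf8 (0.0108) with age in KO muscle and Ndufc1 for genotype at 6 months (-0.0402). The mean of probe sets turned Ndufb5 with age over both genotypes (-0.0061) and Ndufaf8 for genotype at 22 months (-0.00262).

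With 1 array left out, values on both sides of 0 were given with age in KO muscle by Ndufa3 (-0.0409 to 0.0266), Ndufaf2 (-0.176 to 0.0221), Ndufaf3 (-0.362 to 0.0407), Ndufaf6 (-0.26 to 0.0319) and Ndufaf8 (-0.0968 to 0.0916). With age in control muscle they were given by Ndufaf1 (-0.0964 to 0.319), Ndufaf3 (-0.182 to 0.314) and Ndufaf4 (-0.357 to 0.02). With age over both genotypes they were given by Ndufa3 (-0.0143 to 0.0447), Ndufa7 (-0.00155 to 0.037) and Ndufb5 (-0.00115 to 0.0525). For genotype they were given at 22 months by Ndufa3 (-0.0335 to 0.0845) and Ndufaf2 (-0.0694 to 0.118), at 6 months by Ndufaf2 (-0.167 to 0.0486) and over both ages by Ndufaf3 (-0.19 to 0.0577), and for the difference of age effects by Ndufaf2 (-0.0274 to 0.207).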
